A study of Oryza sativa with 8 samples.

Results

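The 5 nuclear loci described here stand for the reduction and triose phosphate steps of the Calvin-Benson cycle in rice (Oryza sativa). They were chosen by locus identifier as the loci of plastid phosphoglycerate kinase (PGK, Os05g0496200), the A and B subunits of plastid glyceraldehyde-3-phosphate dehydrogenase (GAPA, Os04g0459500, and GAPB, Os03g0129300), plastid triosephosphate isomerase (TPI, Os09g0535000) and plastid fructose-bisphosphate aldolase (FBA, Os11g0171300). All 5 were found among the 36850 rows of the count table, and all 5 were among the 20690 rows that passed the filter on low counts. By their identifiers the loci lie on chromosomes 5, 4, 3, 9 and 11. The table pairs no identifier with a gene name, so each enzyme name is the one under which the locus was chosen. That choice, and the choice of the lists used below, was made with earlier results of these data known.

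RNA was sequenced from the second leaf from the top of rice plants grown in the field, sampled at early heading at about 10 a.m. The groups are WT, labelled wild type, and mEmBP-OE-4, which overexpresses mEmBP-1a, a maize transcription factor of the bZIP class, with 4 libraries in each group. No treatment is named, and the groups share the field, leaf position and sampling hour. The overexpression group is 1 line, and the sources used here give neither the promoter of its transgene nor whether replicates were separate plants. The p-values therefore rest on how these libraries vary, part of which may be technical. Libraries held 35627524 to 50800180 counts. CPM are counts per 1000000 counts of a library, here with library sizes scaled by TMM, a method explained below. On the leaf marker list, 4 of 4 loci were tested. Their summed level was 43453 to 56605 CPM in WT, against 51090 to 89098 CPM in the line. Most of that sum came from 1 locus that was not called (log2 fold change 0.30), and the other 3 were called higher, at 0.86, 2.59 and 2.63 (edgeR's quasi-likelihood test). Thus 3 of 4 leaf markers moved with the loci described here, their part in the results was not tested, and 2 of the 4 are also on the list of other Calvin-Benson loci. On a list of 5 floral, root and seed storage loci the sum was 2.38 to 3.64 CPM in WT, against 1.53 to 3.33 CPM in the line, and 1 of the 5 was at 0 in every library.

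The Calvin-Benson cycle fixes carbon dioxide in the chloroplast stroma. Rubisco makes 3-phosphoglycerate, PGK phosphorylates it with ATP, and plastid glyceraldehyde-3-phosphate dehydrogenase reduces the product with NADPH to glyceraldehyde-3-phosphate. TPI interconverts this sugar with dihydroxyacetone phosphate, and aldolase condenses the 2 triose phosphates, which leads towards regeneration of the Rubisco substrate and towards starch. In land plants the A and B subunits form one enzyme, and the B subunit carries a regulatory extension through which light controls it.

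Transcripts of 4 of the 5 loci were higher in mEmBP-OE-4. PGK, GAPA, GAPB and TPI rose 2.20- to 2.82-fold, while FBA, at 1.45-fold, did not pass the test (edgeR's quasi-likelihood test, Benjamini-Hochberg adjusted over all tested genes, threshold 0.05). Of all tested genes 39.2% were called, 20.1% as higher and 19.1% as lower. The median log2 fold change of the 5 loci was 1.25, against 0.00 over all tested genes. In every mEmBP-OE-4 library the levels of PGK, GAPA, GAPB and TPI were above those of every WT library, which held for 18.8% of all tested genes. Levels are CPM on library sizes scaled by TMM, a method that sets the fold changes of most genes around 0.

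**Figure D1:**
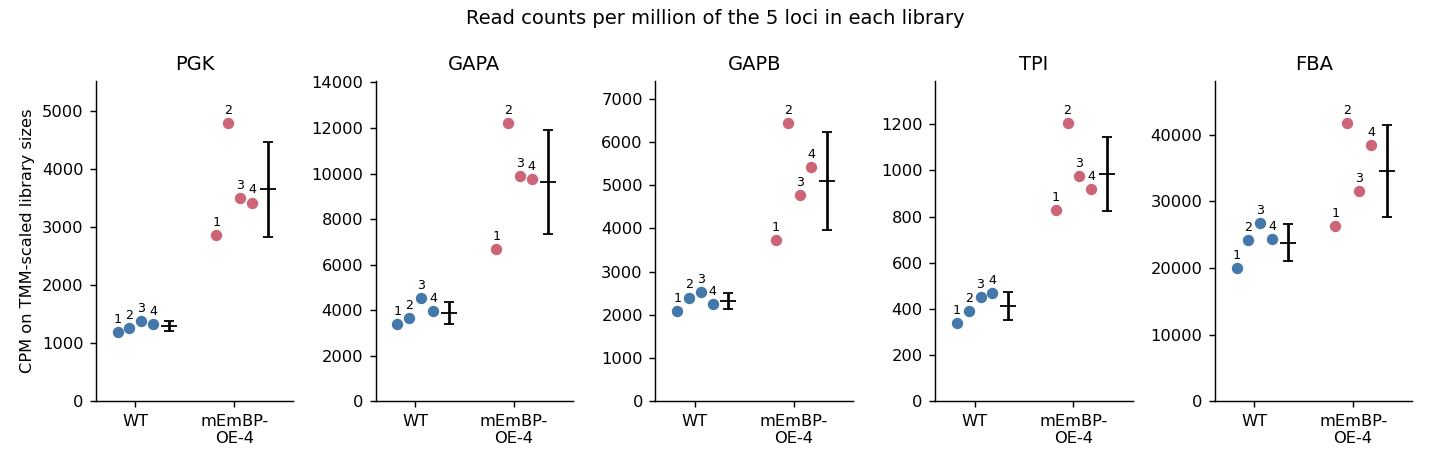
Level of each of the 5 loci in CPM on TMM-scaled library sizes (vertical axis, from 0, a separate scale in each panel) for WT and mEmBP-OE-4. Numbered points are replicates, and bars are the mean ± SD of 4 libraries; the groups are apart in the panels for PGK, GAPA, GAPB and TPI and overlap in the panel for FBA.

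PGK, the first enzyme of the reduction step, stood at 1197, 1273, 1390 and 1326 CPM in WT replicates 1 to 4. In mEmBP-OE-4 replicates 1 to 4 it stood at 2871, 4802, 3510 and 3428 CPM. The lowest mEmBP-OE-4 library was above the highest WT library, and the WT libraries lay close together. WT averaged 1296 ± 81.5 CPM, against 3653 ± 817 CPM in the overexpression line (mean ± SD, n = 4), and the log2 fold change was 1.49 (SE 0.18, edgeR adjusted p = 3.12e-04). This was the largest fold change of the 5 loci, and 6.51% of all tested genes had a higher one.

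GAPA, the A subunit of the dehydrogenase, stood at 3415, 3668, 4532 and 3984 CPM in WT replicates 1 to 4. Its levels in mEmBP-OE-4 replicates 1 to 4 were 6680, 12227, 9886 and 9774 CPM. Replicate 1 was the lowest of the overexpression line and still above all WT libraries. WT averaged 3900 ± 482 CPM, against 9642 ± 2275 CPM in the overexpression line (mean ± SD, n = 4), and the log2 fold change was 1.31 (SE 0.21, edgeR adjusted p = 0.00152).

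GAPB, the B subunit, stood at 2096, 2401, 2529 and 2249 CPM in WT replicates 1 to 4. In mEmBP-OE-4 replicates 1 to 4 it stood at 3731, 6439, 4773 and 5417 CPM. The groups did not overlap, and as for GAPA the overexpression line was lowest in replicate 1 and highest in replicate 2. WT averaged 2319 ± 187 CPM, against 5090 ± 1136 CPM in the overexpression line (mean ± SD, n = 4), and the log2 fold change was 1.13 (SE 0.19, edgeR adjusted p = 0.00169).

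TPI, which interconverts the triose phosphates, stood at 339, 392, 454 and 468 CPM in WT replicates 1 to 4. In mEmBP-OE-4 replicates 1 to 4 it stood at 829.6, 1206, 977 and 919.9 CPM. Every overexpression library exceeded every WT library. WT averaged 413 ± 59.7 CPM, against 983 ± 161 CPM in the overexpression line (mean ± SD, n = 4), and the log2 fold change was 1.25 (SE 0.16, edgeR adjusted p = 4.56e-04).

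FBA, which joins the triose phosphates to fructose-1,6-bisphosphate, stood at 19952, 24185, 26731 and 24337 CPM in WT replicates 1 to 4. In mEmBP-OE-4 replicates 1 to 4 it stood at 26297, 41761, 31563 and 38400 CPM. Replicate 1 of mEmBP-OE-4 lay just below WT replicate 3, so the groups overlapped. WT averaged 23801 ± 2819 CPM, against 34505 ± 6924 CPM in the overexpression line (mean ± SD, n = 4), and the log2 fold change was 0.54 (SE 0.23, edgeR unadjusted p = 0.0415, adjusted p = 0.0891). FBA was called under DESeq2 (adjusted p = 0.00555), with only rows of 5 CPM or more in 4 libraries (edgeR adjusted p = 0.0376) and without mEmBP-OE-4 replicate 1 (edgeR adjusted p = 0.0372). Over all alternatives to the main setting its adjusted p ranged from 0.00555 to 0.706.

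How far each locus differed depended on the scaling of the libraries. TMM factors were 1.11 to 1.28 in WT and 0.741 to 1.01 in mEmBP-OE-4, and without these factors the median tested gene had a log2 fold change of -0.47 in place of 0.00. On library totals 8.47% of tested genes were called higher and 43.1% lower. PGK, GAPA, GAPB and TPI were called higher there too, with log2 fold changes of 1.0 (SE 0.10), 0.81 (SE 0.11), 0.63 (SE 0.09) and 0.77 (SE 0.11) and edgeR adjusted p of 1.23e-04 to 6.67e-04. FBA had a log2 fold change of 0.04 (95% interval of the fit -0.15 to 0.23, edgeR adjusted p = 0.706). Relative to the median of all genes on that scale, FBA stood 0.51 higher and the other loci 1.10 to 1.47 higher on the log2 scale. Each of the other 4 was called higher under all 17 alternative settings tried.

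**Figure D2:**
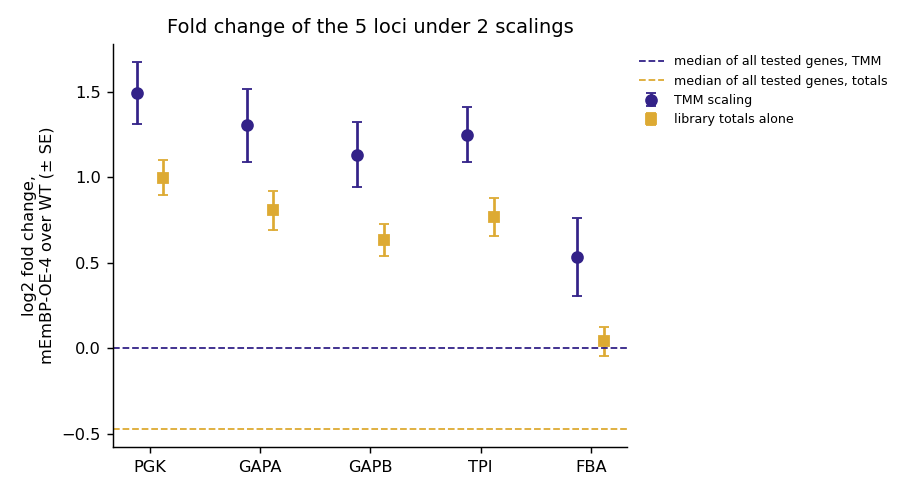
Log2 fold change of mEmBP-OE-4 over WT (vertical axis, ± SE of the fit) for the 5 loci under TMM scaling and with library totals alone; dashed lines are the medians of all tested genes, 0.00 and -0.47. FBA is the lowest of the 5 under both scalings and lies at 0.04 with library totals alone.

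As a share of all counts, FBA reads made up 2.80% ± 0.171 in WT and 2.88% ± 0.185 in mEmBP-OE-4 (SD, n = 4). PGK went from 0.153% ± 0.00254 to 0.305% ± 0.0392, and GAPA from 0.459% ± 0.0324 to 0.803% ± 0.109. GAPB went from 0.273% ± 0.00889 to 0.424% ± 0.0410, and TPI from 0.0486% ± 0.00500 to 0.0827% ± 0.00839. For these 4 loci every share in mEmBP-OE-4 was above every share in WT, as in 7.27% of tested genes on library totals. The shares of FBA overlapped. The 5 loci together held 3.46% to 3.94% of counts in WT and 4.09% to 4.92% in mEmBP-OE-4. Without FBA the range was 0.903% to 0.985% in WT and 1.43% to 1.83% in mEmBP-OE-4.

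Ratios between loci within a library do not depend on the scaling of libraries, and they differed between the groups wherever FBA was one of the pair. These are ratios of read counts, not corrected for transcript length, so only their change between groups is read. FBA had 5.84, 6.59, 5.90 and 6.11 reads for each GAPA read in WT replicates 1 to 4. In mEmBP-OE-4 replicates 1 to 4 it had 3.94, 3.42, 3.19 and 3.93. All 4 ratios of the overexpression line were below all 4 of WT. The log2 ratio differed by -0.76 between the group means. The differences of the log2 ratio of FBA to PGK, TPI and GAPB were -0.95, -0.73 and -0.59.

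All 10 pairs were compared by a two-sided exact permutation test over the 70 ways to choose 4 of 8 libraries, adjusted over the 10 pairs by Benjamini-Hochberg. Each of the 4 ratios with FBA had exact permutation p = 0.0286, below which groups of 4 cannot go, and adjusted p = 0.0476. The ratios of GAPA and GAPB to PGK also passed, at differences of -0.19 and -0.36 on the log2 scale and the same exact permutation p = 0.0286 (adjusted p = 0.0476). For GAPA to PGK the groups nearly touched, with a lowest log2 ratio of 1.512 in WT and a highest of 1.5115 in mEmBP-OE-4. Each of these 6 ratios was lower in mEmBP-OE-4 in 4 of 4 same-numbered pairs, but a paired exact test, whose smallest p is 0.125, gave adjusted p = 0.179 for each and so no call. With any 1 library left out, the 4 ratios with FBA kept an exact permutation p of 0.0286. Their adjusted p was then 0.0476 to 0.0714, and the calls were lost when any 1 of the 4 WT libraries, or replicate 1 of mEmBP-OE-4, was left out. The calls of GAPA and GAPB to PGK were lost in the same 5 cases, with adjusted p of up to 0.179 and 0.0952 in the exact permutation test. In the unpaired test FBA was thus lower in mEmBP-OE-4 relative to each of the other 4 loci, and both dehydrogenase subunits were lower relative to PGK. Ratios of other gene pairs were not compared. With 39.2% of all tested genes called, it is not known how common such differences are.

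For the A and B subunits of the dehydrogenase the ratio did not pass the test. GAPB had 0.614, 0.655, 0.558 and 0.565 reads for each GAPA read in WT replicates 1 to 4. In mEmBP-OE-4 replicates 1 to 4 it had 0.559, 0.527, 0.483 and 0.554. WT replicate 3 lay just below mEmBP-OE-4 replicate 1, and the other WT libraries were above all libraries of the line. The difference was -0.17 on the log2 scale (exact permutation p = 0.0571, adjusted p = 0.0714). Neither did the ratios of TPI to PGK (-0.22, adjusted p = 0.0714), to GAPB (0.14, adjusted p = 0.286) and to GAPA (-0.03, adjusted p = 0.657), by the same exact permutation test. The log2 ratio of TPI to GAPA ranged from -3.33 to -3.09 in WT and from -3.41 to -3.01 in mEmBP-OE-4.

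**Figure D3:**
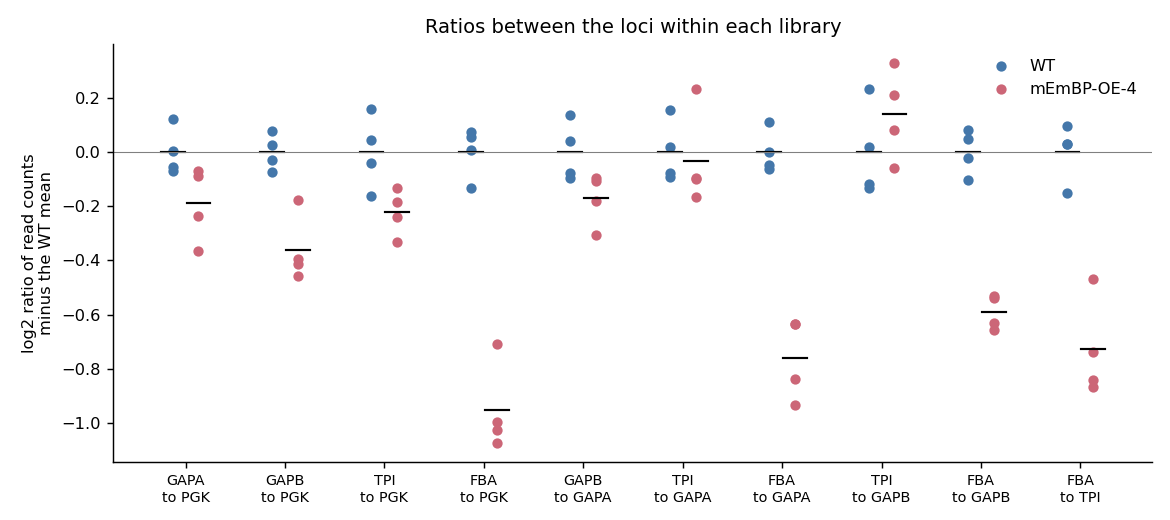
Log2 ratio of read counts of 2 loci in the same library, minus the mean of WT (vertical axis), for the 10 pairs of loci. Points are libraries and short lines group means of 4; the 4 pairs with FBA lie lowest in mEmBP-OE-4, at -0.95 to -0.59.

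Within the reads of the 5 loci the make-up shifted accordingly. FBA held 75.0% ± 0.783 of them in WT and 64.1% ± 1.89 in mEmBP-OE-4 (SD, n = 4). GAPA went from 12.3% ± 0.562 to 17.8% ± 1.38 and GAPB from 7.33% ± 0.376 to 9.42% ± 0.195. PGK went from 4.10% ± 0.235 to 6.79% ± 0.597, and TPI from 1.30% ± 0.0989 to 1.85% ± 0.198. Since FBA held most of these reads, its smaller change also sets the rise of the other shares, and no test was made on them.

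The spread between libraries differed with the scaling. On TMM scaling the coefficient of variation was 6.29% to 14.5% over the 5 loci in WT and 16.3% to 23.6% in mEmBP-OE-4. Replicate 2 of mEmBP-OE-4 was the highest and replicate 1 the lowest library of its group for all 5 loci. Those libraries also had the lowest and the highest TMM factor of the group, 0.741 and 1.01. In WT, replicate 1 was the lowest library for all 5 loci and had the highest TMM factor, 1.28. On library totals the coefficients were 1.66% to 10.3% in WT and 6.44% to 13.5% in mEmBP-OE-4, smaller for each locus in both groups. For TPI they were then 10.3% in WT and 10.1% in the line, and for FBA 6.12% and 6.44%, close to equal in the groups. There TPI was lowest in mEmBP-OE-4 replicate 4, as was PGK, while GAPA, GAPB and FBA were lowest in replicate 1.

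As a description, deviations of log2 CPM from the group means correlated between the loci at r = 0.749 to 0.956 over the 8 libraries (median 0.890 over 10 pairs). The libraries share a scaling factor, and with library totals the range was 0.160 to 0.766 (median 0.651). With the difference between the groups left in, log2 CPM of the 5 loci correlated with each other at r = 0.886 to 0.992 (median 0.976). On that measure the rows most like them over the 8 libraries were Os03g0595300 and Os05g0291700. Each had a mean Pearson r of 0.980 to the 5 loci. Of 20685 other rows 1206, or 5.83%, had a mean r over 0.9, so such likeness is common in a table where the groups differ widely. Os03g0595300 went from 124 ± 22.2 to 333 ± 94.1 CPM and Os05g0291700 from 746 ± 68.0 to 1294 ± 226 CPM (SD, n = 4).

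**Figure D4:**
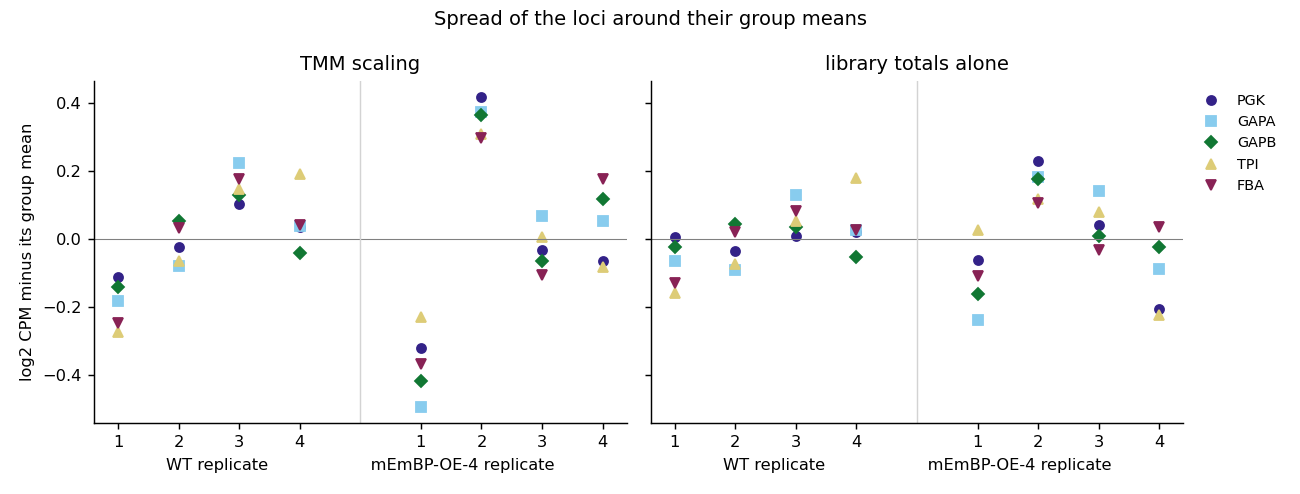
Log2 CPM of the 5 loci minus the mean of their group (vertical axis) in each replicate of WT and mEmBP-OE-4, with TMM scaling and with library totals alone. With TMM scaling all 5 loci are highest in mEmBP-OE-4 replicate 2 and lowest in replicate 1; with library totals PGK and TPI are lowest in replicate 4.

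Other loci of the pathway were taken from lists of identifiers recalled from memory, so membership rests on recall. Of 14 other Calvin-Benson loci, for the Rubisco small subunit, Rubisco activase, enzymes of substrate regeneration and a further aldolase, 10 rose and none fell by edgeR's quasi-likelihood test (10 rose and none fell at unadjusted p under 0.05, and likewise with DESeq2). Of all tested genes edgeR's test called 20.1% higher and 19.1% lower. The median log2 fold change of the 14 loci was 1.0 and their range 0.27 to 2.59, and the fold changes of the 5 loci lie within it. On library totals 8 of the 14 were called higher, against 8.47% of all tested genes. Os12g0274700 and Os07g0176900 had the lowest adjusted p of the risen loci on the pathway lists. Os12g0274700, also a leaf marker, went from 698 ± 170 to 4218 ± 1349 CPM (mean ± SD, n = 4, edgeR adjusted p = 2.52e-04). Os07g0176900 went from 346 ± 16.9 to 776 ± 161 CPM (edgeR adjusted p = 5.68e-04).

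Further loci of the 4 enzyme families, for cytosolic and other forms, numbered 16, of which 13 were tested. Of these 6 rose, 1 fell and 6 were not called, against 20.1% of all tested genes called higher and 19.1% lower. The median log2 fold change of the 13 loci was 0.54. The one that fell, Os10g0442100, averaged 4.04 ± 0.317 CPM in WT, against 1.01 ± 0.106 CPM in the line (mean ± SD, n = 4). On the log2 scale it fell by 1.99 (SE 0.18, edgeR adjusted p = 6.98e-05), and a minimum of 5 CPM in 4 libraries leaves it out of the test. On library totals 1 of the 13 was called higher and 2 lower, where 8.47% of all tested genes were called higher and 43.1% lower. The median of the list was 0.075 on that scale, where the median of all tested genes was -0.47. The counting is not described, so reads of near-identical copies may have been assigned to the wrong family member. That holds for the list of other Calvin-Benson loci too, where copies of a family need not count separately.

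By edgeR's quasi-likelihood test 20.1% of all tested genes were called higher and 19.1% lower. Of 5 loci for triose phosphate export and sucrose synthesis, steps that draw on triose phosphate, none was called. The list is short, and its count was not tested against these shares. Its lowest locus stood at 7.19 ± 3.02 CPM in WT, with an SE of 0.52 for its log2 fold change. The lowest edgeR adjusted p on the list was 0.0531, so the lack of calls does not show a lack of change. At unadjusted p under 0.05, 2 were higher and none lower, DESeq2 called 1 higher, and the fit with replicate numbers as a block called 2 higher. Without mEmBP-OE-4 replicate 4 the number was 3, and without WT replicate 1 it was 1. On library totals none of the 5 was called higher and 1 was called lower, against 8.47% and 43.1% of all tested genes. With TMM scaling the log2 fold changes of these 5 loci ranged from -0.01 to 0.78, with a median of 0.51. Bulk leaf RNA cannot tell more cells of a type from more RNA per cell, for these loci or for the 5 described first.

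**Figure D5:**
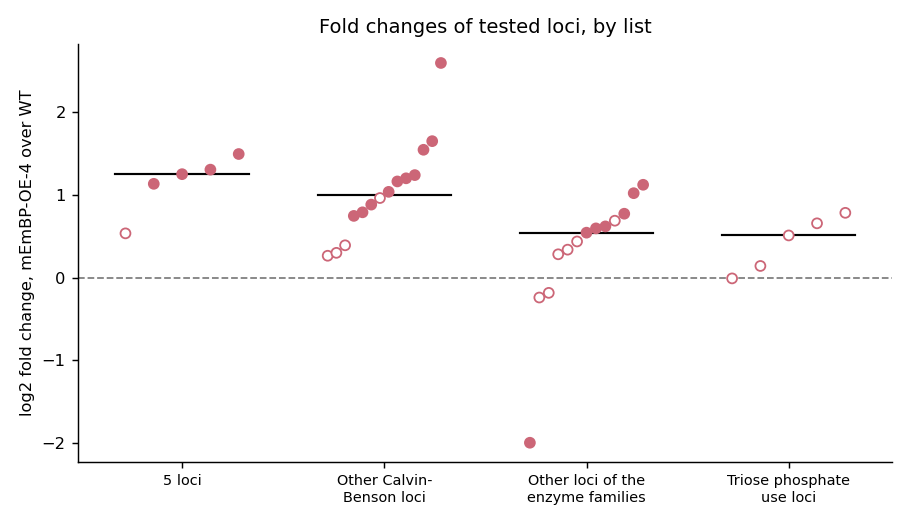
Log2 fold change of mEmBP-OE-4 over WT (vertical axis, TMM scaling) for each tested locus of 4 lists, with filled points for edgeR adjusted p under 0.05 and lines at list medians of 1.25, 1.0, 0.54 and 0.51. The dashed line is the median of all tested genes, 0.00.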

How the data were processed

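The authors deposited 1 table of raw read counts per gene with 8 columns, 1 a library. The tools named, per the submitters' processing notes, are STAR 2.5.3a, FastQC, Trim Galore and DESeq2, with build IRGSP-1.0 and no roles. The counter, strand setting and annotation used were not given in the sources used here. Samples were grouped by title. The 5 loci and all lists were chosen with earlier results of these data known. Named were the 5 loci, the 2 rows most like them by mean Pearson r, and at most 2 higher and 2 lower loci of the pathway lists. The gene table for another assembly matched none of the 5 identifiers, so neither sequences nor coordinates are given.

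Counts were filtered with filterByExpr (minimum count 10, total 15), scaled by TMM and tested by the quasi-likelihood F test of edgeR 4.0.16 (R 4.3.3) with Benjamini-Hochberg adjustment over 20690 rows. SE is the absolute log2 fold change over the square root of F. CPM were computed from the deposited counts, and correlations used log2 CPM with a prior count of 2. Ratios used raw counts. DESeq2 1.42.0, other scalings, filters and left-out libraries were alternatives. The test was tried on simulated counts with 200 genes changed. That is far fewer than were called here, so the trial does not cover groups that differ this widely. No 2 replicates were duplicates within sampling noise (chi-square 6.20 to 110 per degree of freedom). Same-numbered libraries had correlated deviations from their group means, at r = 0.641, 0.347, 0.189 and 0.104. All exceed 0.1, the level set for reading the numbers as pairs, though WT replicate 2 did not correlate best with its own number and the labels do not say what a number shares. The main tests are unpaired, and fits with the number as a block are given where they change a call.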

Additional observations from a re-analysis of the deposited data

How the results depend on the processing

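Of 297 values under alternatives, 239 kept their direction and side of the threshold (counts within 1.5 times), 42 lost and 3 gained a call, 11 counts moved further and 2 differences changed sign. FBA gained a call under DESeq2 (log2 fold change 0.54), with rows of 5 CPM or more in 4 libraries (0.51) and without mEmBP-OE-4 replicate 1. Leaving out 1 library gave log2 fold changes of 1.33 to 1.58 for PGK, 1.16 to 1.43 for GAPA, 0.99 to 1.24 for GAPB, 1.13 to 1.31 for TPI and 0.42 to 0.63 for FBA. Without both number 1 libraries, chosen after seeing the data, FBA had 0.55 (edgeR adjusted p = 0.0646). On totals of rows outside the 50 most abundant, likewise chosen afterwards, it had 0.19 (edgeR adjusted p = 0.242).

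All tested genes called numbered 8109, 5220 with the 5 CPM filter, 9086 with DESeq2, 10200 with the replicate block, 10664 with library totals and 6399 to 8450 with 1 library left out. Loci of the enzyme families called higher numbered 6, 7 with DESeq2 or the replicate block, and 5 to 7 with 1 library left out. Their number was 1 with library totals and 3 on totals without the 50 most abundant rows. Those called lower went from 1 to 2 in either case and to 0 with the 5 CPM filter. Triose phosphate use loci called higher went from 0 to 1 with DESeq2 or median-of-ratios factors, 2 with the replicate block, and 0 to 3 with 1 library left out.

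With the replicate block, the paired exact test gave no call for the log2 ratio differences of FBA to PGK (-0.95), GAPA (-0.76), TPI (-0.73) and GAPB (-0.59), or of GAPB (-0.36) and GAPA (-0.19) to PGK, since 4 pairs cannot go below 0.125. The block changed no other call of the 5 loci and pairs. Without both number 1 libraries, where 0.1 is the smallest exact p, these differences were -0.98, -0.82, -0.67, -0.64, -0.34 and -0.16. With 1 library left out they ranged from -1.03 to -0.91, -0.80 to -0.70, -0.81 to -0.68, -0.62 to -0.56, -0.42 to -0.33 and -0.23 to -0.13. The difference of TPI to GAPA changed sign when replicate 4 of WT (0.019) or of mEmBP-OE-4 (0.013) was left out, within a range of -0.12 to 0.019. These 6 calls were kept when mEmBP-OE-4 replicate 2, 3 or 4 was left out, and lost without any other single library. For the 4 ratios with FBA the unadjusted exact permutation p was 0.0286 in each case, and only the adjustment over the 10 pairs moved. Depth did not limit the 5 loci, which held at least 17891 reads in each library.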
